A study of Drosophila melanogaster with 17 samples.

Results

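To follow the glial response to head injury between day 3 and day 7, the ribosome-associated RNA of glia was compared between these 2 days in injured flies. The comparison holds 5 of the 17 libraries of the series, namely the 2 TBI libraries of day 7 and the 3 TBI libraries of day 3, and every one of the 13479 genes listed was considered. Of these, 12059 were above 0 in at least 1 of the 5 libraries and were tested. The libraries were chosen by their labels, not by their values.

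All flies carried repo-GAL4, which drives expression in nearly all glia, and a GFP-tagged ribosomal protein, RpL10A, under UAS control. The tagged ribosomes were pulled down from pooled heads (translating ribosome affinity purification, TRAP) and the RNA bound to them was sequenced. TBI flies had been struck on the head by a solenoid (Drosophila Closed Head Injury, dCHI), and sham flies were the uninjured controls. All were collected at ZT0, the time of lights-on, after being kept at 25°C in a 12:12 light:dark cycle. The labels name the days D6 and D10, which the study's tables place 3 and 7 days after injury, whereas the description of the series counts 6 and 10 days from the injury itself. The labels call the flies female and the study's methods call them male. Sham libraries of the same days, 3 of day 3 and 3 of day 7, stand beside the injured ones, because flies of day 7 are also older than flies of day 3. The third TBI library of day 7 was set aside by the authors as a poor library, so that day 7 rests on 2 libraries. Replicates are taken as separate samples. Nothing in the labels says whether they came from separate cohorts of flies, so p-values measure only the spread between these samples.

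Fly glia insulate axons, take up glutamate and GABA, form the blood–brain barrier and clear debris through engulfment receptors such as Draper. They also mount innate immune responses through the Toll, Imd and JAK–STAT pathways, of which the antimicrobial peptides are the best-known targets. Messenger RNA bound to tagged ribosomes reports what these cells may be translating. In such pooled material, fewer cells of a type and less RNA per cell cannot be told apart.

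Levels are TPM (transcript abundance scaled for length and library total), divided by a factor that sets the upper quartile of every library equal. TPM carries no depth, so no counting interval is given. The glial markers were present in every library: repo, the pan-glial transcription factor, lay between 27.2 and 53.5 scaled TPM in the 5 injured libraries, and alrm, an astrocyte marker, between 186 and 452. Transcripts of other head cells were present too. The neuronal gene nSyb lay between 426 and 668 scaled TPM. The hemocyte markers had mean levels of 1.93 to 2.46 on the log2(scaled TPM + 1) scale. Yp3, a yolk protein gene of the female fat body and ovary, lay between 1412 and 5409 scaled TPM.

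One of the day 7 TBI libraries stood apart from the other injured libraries of days 3 and 7, and this bears on every result below. In replicate 1, 559 of 8724 genes with a mean of at least 1 scaled TPM lay at least 1 log2 unit above all 4 other injured libraries. This count was 37 in replicate 2 and 7 to 16 in the libraries of day 3. Against all 10 other libraries of days 3 and 7, sham included, it was 208 in replicate 1, 18 in replicate 2 and 1 to 7 on TBI day 3. The log2 levels of replicate 1 correlated across genes with those of replicate 2 at r = 0.873 and with those of day 3 at 0.874 to 0.889. Replicate 2 and day 3 correlated at 0.946 to 0.973. Genes of the female germline were high in it. osk, which builds the germ plasm, had 26.8 scaled TPM in replicate 1 and was listed at 0 in the other 4 injured libraries of days 3 and 7. CycB, a mitotic cyclin, had 198 scaled TPM in replicate 1, 0.569 in replicate 2 and 0.278 to 0.360 on day 3. Over 17 germline genes, a list put together after these values had been seen, the mean log2 level was 4.82 in replicate 1, 0.44 in replicate 2 and 0.37 to 0.57 on day 3. Over 16 cell cycle genes, also listed afterwards, it was 5.41, 1.21 and 1.01 to 1.19. Midgut digestive enzyme genes had mean levels of 2.41 in replicate 1, 0.17 in replicate 2 and 0.24 to 0.37 on day 3. One sham library, day 3 replicate 2, held the same 3 groups at 3.10, 3.94 and 2.66. The TBI libraries of day 1 are in no contrast here, but they enter the main fit and so the spread behind its SE and p-values. They held digestive enzymes at 2.56, 2.67 and 2.32. Replicates 2 and 3 of that day also held germline genes at 3.12 and 2.89 and cell cycle genes at 3.74 and 3.63. Hsp26, a chaperone gene, had 306 scaled TPM in replicate 1, 16.5 in replicate 2, 7.81 to 50.2 in TBI day 3 and 123 in sham day 3 replicate 2, but the whole heat shock list was not high in that sham library (mean 3.79, against 3.83 and 3.86 in the other sham libraries of day 3). The mean of the 12 glial markers was lowest in replicate 1, at 5.69, and 6.43 to 6.89 in the other 10 libraries of days 3 and 7. The part of these transcripts in the results below was not tested, and differences and medians are therefore also given without replicate 1.

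**Figure D1:**
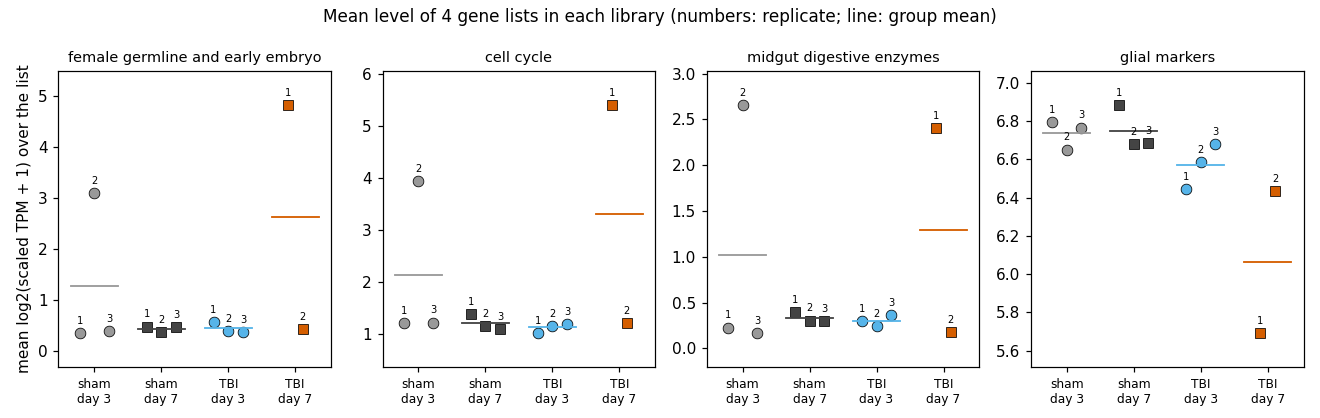
Mean log2(scaled TPM + 1) over 4 gene lists (y axis) in each of the 11 sham and TBI libraries of days 3 and 7 (x axis; circles for day 3, squares for day 7, numbers for the replicate, lines for group means). TBI day 7 replicate 1 has germline, cell cycle and digestive enzyme means of 4.82, 5.41 and 2.41, sham day 3 replicate 2 has 3.10, 3.94 and 2.66, and TBI day 7 replicate 1 has the lowest glial marker mean.

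Between day 3 and day 7 after injury, 5 genes rose in glial RNA and no gene fell. Calls required a log2 difference of 0.6 or more in either direction and an adjusted p no higher than 0.1, the limits the study used, with limma and Benjamini-Hochberg adjustment over the 12059 genes. The 5 genes that rose are 0.0415% of the genes tested and the 0 that fell are 0.0%. At an unadjusted p under 0.05, 660 genes lay higher on day 7 (5.47%) and 406 lower (3.37%). In 1099 genes (9.11%) both day 7 libraries were above all 3 day 3 libraries, and in 935 (7.75%) both were below. The median difference over all genes tested was 0.02 log2 units. Without scaling the median was 0.18, with 1244 genes higher and 107 lower at an unadjusted p under 0.05, so small differences depend on the scaling.

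The number of calls turned on which day 7 library was used. With replicate 1 alone for day 7, 1108 genes were called higher (9.27%) and 563 lower (4.71%) of 11947 tested. In 816 of the 1108, replicate 2 was not above the highest day 3 library, and in 426 of the 563 it was not below the lowest. With replicate 2 alone, 36 were called higher (0.312%) and 3 lower (0.026%) of 11534, and in 29 of the 36 replicate 1 was not above the highest day 3 library. Only 3 genes were called with either library alone, all 3 in the same direction. In both of these fits the lone library is assumed to vary like the libraries of the other groups.

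All 5 genes called were close to 0 in the libraries of day 3. ana2 encodes a protein needed for centriole duplication and lies on 2R (8898729 to 8900211, minus strand, release 6 assembly). It had 2.49 and 2.36 scaled TPM on day 7 and 0.0835, 0.0532 and 0 on day 3, and the sham libraries of both days lay between 0 and 0.202. The day 7 libraries were thus above the 9 others of these days. On day 1, 1 TBI library had 1.2 scaled TPM and 1 sham library 0.753. The difference was 1.71 ± 0.27 (SE) on the log2(scaled TPM + 1) scale (limma, adjusted p = 0.0503). CG30323 (2R, 17853295 to 17854296, plus strand) had 2.33 and 0.852 scaled TPM on day 7 and was listed at 0 in all 3 day 3 libraries, with 0.266 in 1 sham library of day 7 and 0 in the other sham libraries (difference 1.31 ± 0.17, limma adjusted p = 0.0231). CG43702 (3L, 21298675 to 21299063, plus strand) had 0.340 and 0.790 scaled TPM on day 7 and was listed at 0 in all other libraries of these days (difference 0.63 ± 0.09, limma adjusted p = 0.0270). Peritrophin-15b (2L, 8394446 to 8394940, minus strand), named as one of the chitin-binding peritrophins, had 0.618 and 0.718 and was listed at 0 in the other libraries of days 3 and 7, but it had 1.23, 1.76 and 2.40 in the 3 TBI libraries of day 1, above day 7 (difference 0.74 ± 0.12, limma adjusted p = 0.0819). CG31952 (2L, 3416693 to 3418068, plus strand) had 0.697 and 0.540 scaled TPM on day 7 and 0, 0.205 and 0 on day 3, with up to 0.254 in the sham libraries (difference 0.60 ± 0.10, limma adjusted p = 0.0819).

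**Figure D2:**
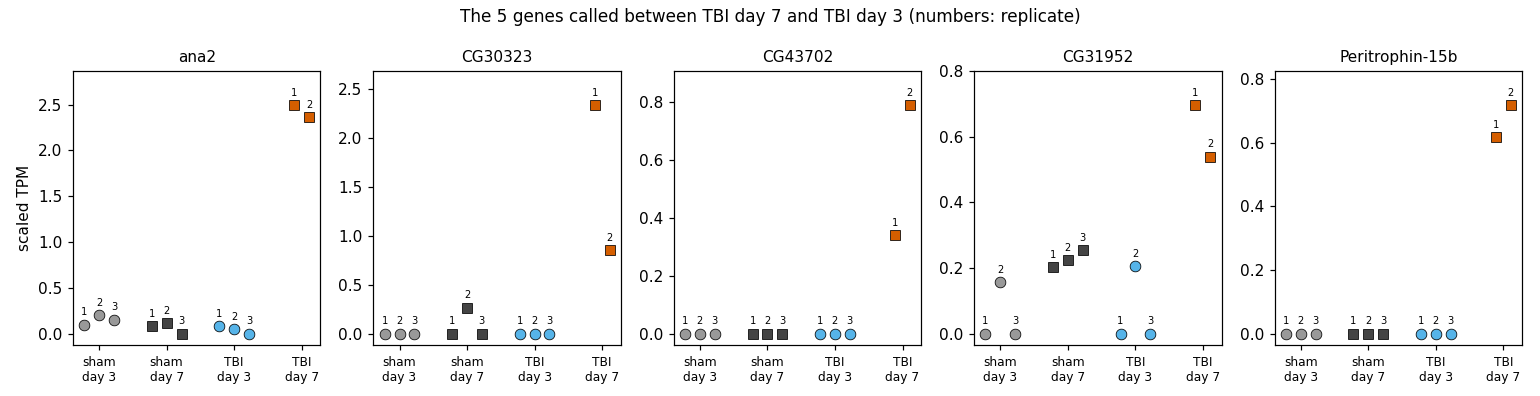
Scaled TPM (y axis, linear, a separate scale for each gene) of the 5 called genes in each sham and TBI library of days 3 and 7 (x axis; numbers for the replicate). Both TBI day 7 libraries lie above the TBI day 3 libraries in every panel, and no library exceeds 2.49 scaled TPM.

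These 5 genes were singled out after their values had been seen, since the rule for naming genes asked for a mean of at least 10 scaled TPM. None of them reached that level, and none was among the 8724 genes with a mean of at least 1 over all libraries, where 0 genes were called (lowest limma adjusted p = 0.570, 755 genes at an unadjusted p under 0.05). At levels this low a value of 0 need not mean that the transcript is missing, and a difference against a group at 0 depends on the pseudocount, so that no fold is given. ana2, Peritrophin-15b and CG31952 overlap an annotated gene on the other strand and CG30323 overlaps Orai on its own strand. Whether strand was used when reads were assigned is not given in the sources used here. Without replicate 1, 4 of the 5 were called, and without replicate 2 again 4.

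A further gene, Tim13, which encodes a small chaperone of mitochondrial protein import, had the lowest adjusted p of all (limma, adjusted p = 0.00347) but missed the limit on size. It had 0.380, 0.589 and 0.531 scaled TPM in the 3 day 3 libraries and was listed at 0 in both libraries of day 7 and in all 6 sham libraries (difference −0.58 ± 0.06). It was chosen as the gene of lowest p in the difference between TBI and sham.

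Among genes with a mean of at least 10 scaled TPM, none was called, and the 10 genes of lowest p in each direction whose libraries did not overlap between the days are described instead. Their limma adjusted p lay between 0.200 and 0.551. In all, 453 such genes had both day 7 libraries above day 3 and 583 had both below, of 5789 at that level. Over all 12059 genes tested it was 1099 above (9.11%) and 935 below (7.75%). Of the 20 genes described, 9 overlap an annotated gene on the other strand.

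Of the genes that lay lower on day 7, Glt encodes Glutactin, a glycoprotein of basement membranes. It had 120, 127 and 123 scaled TPM in the 3 libraries of day 3 and 57.4 and 69.1 on day 7, while the sham libraries had 84.3, 89.5 and 81.5 on day 3 and 88.6, 97.4 and 133 on day 7. The 2 injured day 7 libraries were thus below all 9 other libraries of days 3 and 7. The TBI libraries of day 1 had 80.0, 54.4 and 83.6, 1 of them below both day 7 libraries. The difference was −0.96 ± 0.18 with both day 7 libraries (limma adjusted p = 0.200) and −0.83 without replicate 1.

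Gat encodes the GABA transporter of astrocyte-like glia. It had 123, 133 and 118 scaled TPM on day 3 and 60.8 and 92.6 on day 7, against 143 to 169 in the sham libraries (difference −0.72 ± 0.16, −0.42 without replicate 1). tsl, or torso-like, which is known for its role in activating the Torso receptor in the embryo, had 55.3, 57.5 and 53.7 on day 3 and 30.9 and 36.4 on day 7 (difference −0.71 ± 0.15, −0.59 without replicate 1). NimB1, of the Nimrod family, had 14.6, 9.91 and 11.3 on day 3 and 6.03 and 5.60 on day 7 (difference −0.91 ± 0.22, −0.95 without replicate 1). The difference for NimB1 was thus as large without the library that stood apart.

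Of the other 6 in this direction, Ugt35C1, a UDP-glycosyltransferase gene, had differences of −0.60 with both day 7 libraries and −0.66 without replicate 1. The cuticle protein gene Cpr47Ee had −1.04 and −0.59, and the glutathione S-transferase gene GstE9 −0.61 and −0.32. The acyl-CoA synthetase gene pdgy had −0.43 and −0.37. phu had −1.14 and −0.92, and CG6415 had −0.96 and −0.84. In 8 of the 10 genes replicate 1 was further from day 3 than replicate 2, and in 8 of the 10 both day 7 libraries were also below all 6 sham libraries.

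The genes that lay higher on day 7 included Smn, the survival motor neuron gene, whose product assembles spliceosomal snRNPs. It had 15, 15.6 and 15.8 scaled TPM on day 3 and 40.2 and 28.6 on day 7, and its sham levels ran from 16.2 to 30.5, the highest in sham day 3 replicate 2 (difference 1.08 ± 0.33, 0.85 without replicate 1). Naa40, an N-terminal acetyltransferase of histones, had 3.76, 5.23 and 5.94 on day 3 and 13.5 and 10.9 on day 7 (difference 1.15 ± 0.30, 1.01 without replicate 1). Roe1, which encodes the mitochondrial GrpE cochaperone, had 18.9, 15.3 and 15.4 on day 3 and 24.9 and 23.8 on day 7 (difference 0.54 ± 0.16, 0.51 without replicate 1). Without replicate 1 their differences lay between 0.51 and 1.01, above 0 because the rule asked for both day 7 libraries above day 3.

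LBR, the lamin B receptor of the inner nuclear membrane, had 3.50, 2.80 and 3.05 on day 3 and 18.8 and 4.75 on day 7, with a difference of 1.38 ± 0.41, and 0.48 without replicate 1. The adaptor gene Dok had differences of 0.66 with both libraries and 0.39 without replicate 1, PIG-F, of GPI anchor synthesis, 0.58 and 0.46, CG5726 0.63 and 0.45, CG11307 0.78 and 0.49 and CG5323 0.43 and 0.47. CG10576 had 4.62, 0 and 0.000356 scaled TPM on day 3 and 30.4 and 15.2 on day 7 (difference 3.66, 3.19 without replicate 1). It was listed at 0 in all 3 sham libraries of day 7 and had 0, 1.37 and 4.84e-06 in those of day 3. An estimate can fail at values so close to 0, and CG10576 overlaps snoRNA genes on its own strand. In 9 of the 10 genes replicate 1 was above replicate 2, and in 5 of the 10 both day 7 libraries were above all 6 sham libraries.

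**Figure D3:**
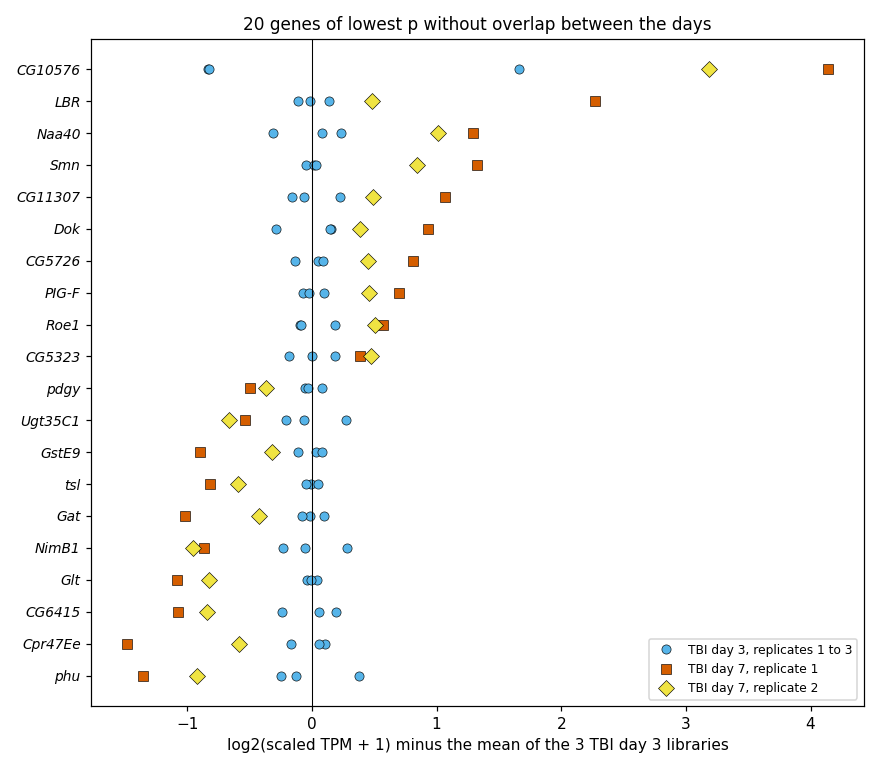
Level of 20 genes in each injured library, as log2(scaled TPM + 1) minus the mean of the 3 TBI day 3 libraries (x axis), with 1 gene per row (circles for TBI day 3, squares for TBI day 7 replicate 1, diamonds for replicate 2). The day 7 symbols lie on the same side of all day 3 circles, as the rule required, and replicate 1 lies further out in most rows, as for LBR and Cpr47Ee, but not for NimB1 or Ugt35C1.

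Antimicrobial peptide genes, the effectors of the Toll and Imd pathways, mostly had differences below 0 with both day 7 libraries, but no member was called. With replicate 2 alone the median difference was 0.04. Of 26 in the table, 25 were tested, and in 10 both day 7 libraries were below all day 3 libraries (40% of those tested, against 7.75% of all genes), with none the other way. AttC, an attacin directed against gram-negative bacteria, had 122, 43.6 and 116 scaled TPM on day 3 and 10.9 and 18.1 on day 7 (difference −2.52 ± 1.08, limma unadjusted p = 0.0363, adjusted p = 0.560). It remained lower without replicate 1, by −2.17. DptA, a diptericin, had 112, 94.7 and 155 on day 3 and 8.20 and 35.4 on day 7 (difference −2.70 ± 1.51, −1.71 without replicate 1 and −3.69 without replicate 2). DptB had 37.3, 13.2 and 36.9 against 3.93 and 7.09 (difference −2.12 ± 1.11, −1.76 without replicate 1). edin, a small immune-induced peptide gene, had 8.44, 16.2 and 11.2 against 1.17 and 3.81 (difference −1.96 ± 1.13, −1.38 without replicate 1).

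Metchnikowin (Mtk) and drosocin (Dro) had their low values mainly in replicate 1. Mtk, active against fungi, had 443, 418 and 862 scaled TPM on day 3 and 59.6 and 297 on day 7 (difference −2.01 ± 1.09, −0.86 without replicate 1). Dro had 230, 280 and 426 on day 3 and 30.8 and 185 on day 7 (difference −1.98 ± 1.37, −0.70 without replicate 1). Other members lay the other way in replicate 2: the antifungal drosomycin gene Drs had 50.4, 159 and 80.8 on day 3 and 149 and 674 on day 7 (difference 1.86 ± 1.01, 2.95 without replicate 1), and the cecropin gene CecB had 1.19, 1.85 and 3.88 against 1.62 and 14.6 (difference 1.03, 2.32 without replicate 1). The defensin gene Def had 2.56, 4.62 and 5.96 against 1.25 and 19.7 (difference 0.39, 2.00 without replicate 1). The 10 genes whose days did not overlap were AttA, AttB, AttC, DptA, DptB, Dro, Mtk, edin and the Bomanin genes BomBc2 and BomBc3, whereas AttD, Drs, Def and the cecropins overlapped. AttA and AttB are near-identical neighbours, and reads may have been split between them.

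In mean levels and medians, the 2 day 7 libraries differed. On the mean log2 scale the list stood at 4.91, 5.37 and 5.45 on day 3 and at 3.88 and 5.36 on day 7. Replicate 2 thus lay within the range of day 3. The median over the 25 genes was −0.54 with both day 7 libraries, 0.04 with replicate 2 alone and −1.23 with replicate 1 alone. In sham flies it was 0.85 over the same days, and there a single library was high: sham day 7 replicate 3 had 1542 scaled TPM of Mtk, 373 of DptA and 217 of AttC, against 138, 4.53 and 8.63 in replicate 2. For DptA and AttC the sham libraries of day 7 thus spread more widely than the 5 injured libraries.

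**Figure D4:**
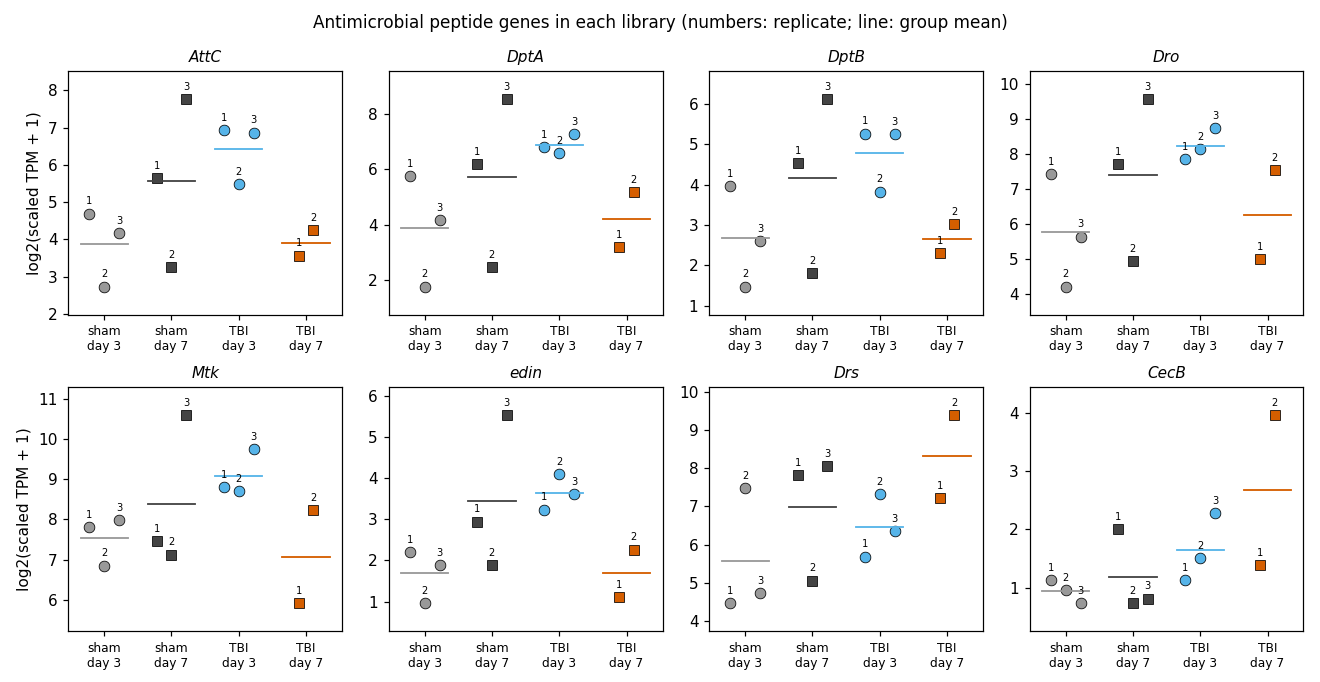
log2(scaled TPM + 1) (y axis, a separate scale for each gene) of 8 antimicrobial peptide genes in each sham and TBI library of days 3 and 7 (x axis; numbers for the replicate, lines for group means). AttC, DptA, DptB, Dro, Mtk and edin lie lower in both TBI day 7 libraries than on TBI day 3, Drs and CecB overlap, and sham day 7 replicate 3 reaches 1542 scaled TPM of Mtk.

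Upstream of these effectors, the 32 genes of peptidoglycan recognition and of the Imd and Toll pathways had a median difference of 0.03, or 0.09 without replicate 1, and no calls. Both day 7 libraries were above day 3 in 6 of them (18.8%, against 9.11% of all genes) and below in 2 (6.25%, against 7.75%). pll, which encodes the Pelle kinase of the Toll pathway, had 6.60, 5.91 and 7.22 scaled TPM on day 3 and 10.3 and 9.39 on day 7 (difference 0.52 ± 0.21, 0.46 without replicate 1). Its ligand gene spz had 28.1, 35.4 and 34.5 against 36.4 and 36.4. The 2 that lay below were the recognition genes PGRP-SB1, with 52.4, 49.2 and 98.2 against 14.1 and 33.9 (difference −1.48 ± 0.61, −0.88 without replicate 1), and PGRP-SD, with 28.3, 27.9 and 37 against 20.1 and 22.9 (difference −0.50 ± 0.19, −0.41 without replicate 1).

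The JAK–STAT and Turandot list had 18 genes tested, none called, and a median of −0.11, or −0.25 without replicate 1. Both day 7 libraries were below day 3 in 5 of them (27.8%, against 7.75% of all genes) and above in 0 (0%, against 9.11%). The receptor gene dome had 5.03, 5.43 and 4.94 scaled TPM on day 3 and 6.32 and 5.18 on day 7. et, which encodes a receptor that dampens the pathway, had 7.56, 9.90 and 11.8 against 4.07 and 7.27 (difference −0.71 ± 0.23, −0.36 without replicate 1). The stress-induced secreted peptide gene TotA had 564, 354 and 300 on day 3 and 732 and 353 on day 7, all within the spread of day 3 but for replicate 1, and was 155 to 461 in sham flies. vir-1, a marker of the antiviral response, had 958, 1744 and 1143 against 533 and 1559, and its difference of −0.44 became 0.33 without replicate 1.

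All 12 glial markers had a difference below 0, with a median of −0.53, against 0.02 in sham flies. In 5 of them (41.7%, against 7.75% of all genes), Gat, Gs2, Gli, moody and Eaat1, both day 7 libraries were below all day 3 libraries. Gs2, the glutamine synthetase of glia, had 1664, 2409 and 1888 scaled TPM on day 3 and 852 and 1385 on day 7 (difference −0.85 ± 0.25, limma unadjusted p = 0.00439), and −0.50 without replicate 1. Gli, or gliotactin, of subperineurial glia, had 21.4, 15.45 and 24.5 against 7.08 and 15.40 (difference −0.87 ± 0.25, −0.36 without replicate 1), so that replicate 2 lay only just below day 3. The barrier receptor gene moody had 79.9, 88.9 and 98.6 against 47.7 and 77.2 (difference −0.54, −0.20 without replicate 1). Without replicate 1 the median was −0.16, and repo, alrm, nrv2 and wrapper lay above 0. Draper, the engulfment receptor (drpr), had 47.7, 27.9 and 27.4 on day 3 and 38.3 and 28.8 on day 7.

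Septate junction and blood–brain barrier genes had a median of −0.23, and −0.03 without replicate 1, with 4 of 19 below day 3 in both day 7 libraries (21.1%, against 7.75% of all genes) and 1 above (5.26%, against 9.11%). Tret1-1, a trehalose transporter of the barrier, had 299, 272 and 282 scaled TPM on day 3 and 173 and 222 on day 7 (difference −0.53 ± 0.15, −0.35 without replicate 1), against 266 to 371 in sham flies. The septate junction gene cora had 65.0, 68.3 and 63.5 against 38.8 and 53.2 (difference −0.52, −0.30 without replicate 1). The matrix gene SPARC, which binds collagen IV, was lowest in the other library: it had 115, 97.3 and 84.7 on day 3, 69.8 in replicate 1 and 15.7 in replicate 2 of day 7 (difference −1.53 ± 0.61, −2.57 without replicate 1), and 27.1 to 91.4 in sham flies. Engulfment genes had a median of −0.00 over 9 genes, or −0.10 without replicate 1. For JNK pathway and matrix protease genes the direction turned with the library: the median over 15 genes was −0.21 with both day 7 libraries, 0.17 without replicate 1 and −0.51 with it alone. Both day 7 libraries lay above day 3 in 2 of them (13.3%, against 9.11% of all genes) and below in 2 (13.3%, against 7.75%).

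Of the 32 lists, proteasome genes had the largest share above day 3 in both day 7 libraries. Of 40 tested, 38 had a difference above 0, and in 14 (35%, against 9.11% of all genes) both day 7 libraries lay above all day 3 libraries, with none below. The median was 0.28, and 0.14 with replicate 2 alone, 0.30 with replicate 1 alone and −0.09 in sham flies. Rpt5, an ATPase of the regulatory particle, had 27.1, 23.1 and 25.4 scaled TPM on day 3 and 50.2 and 29.7 on day 7 (difference 0.60 ± 0.19, limma adjusted p = 0.551), and 0.23 without replicate 1. Rpn8, a lid subunit, had 33.1, 34.1 and 42.8 against 46.0 and 45.9 (difference 0.33 with and without replicate 1). Prosalpha2, of the core particle, had 44.0, 55.1 and 48.2 against 72.9 and 57.3 (difference 0.40, 0.23 without replicate 1). Among the sham libraries of these days, day 3 replicate 2, which also held germline transcripts, had the highest level of the list, at 3.97 on the mean log2 scale, against 4.11 and 3.86 on TBI day 7 and 3.55 to 3.76 on TBI day 3. The other sham libraries of these days had 3.68 to 3.85, and TBI day 1 replicates 2 and 3, which held germline transcripts too, had 4.05 and 4.10.

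Cytosolic ribosomal protein genes lay the other way. In 21 of 82 (25.6%, against 7.75% of all genes) both day 7 libraries were below day 3, with none above, and the median was −0.40, or −0.11 without replicate 1 and −0.03 in sham flies. On the mean log2 scale the list stood at 10.33, 10.79 and 10.62 on day 3 and at 10.11 and 10.48 on day 7, so replicate 2 lay within the range of day 3. The 80 nuclear genes of the respiratory chain had medians of −0.26 with both libraries, −0.83 with replicate 1 alone and 0.25 with replicate 2 alone. The 8 genes of the mitochondrial genome had −0.41 with both, 0.06 with replicate 1 alone and −0.75 with replicate 2 alone, and 0.53 in sham flies. mt:ND6, of complex I, had 309, 321 and 245 scaled TPM on day 3 and 221 and 164 on day 7 (difference −0.61, −0.82 without replicate 1). For both respiratory lists the 2 day 7 libraries thus lay on opposite sides of 0.

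Genes of the unfolded protein response and the endoplasmic reticulum had a median of 0.03 over 17 genes, or 0.15 without replicate 1. In 3 of them (17.6%, against 9.11% of all genes) both day 7 libraries were above day 3. CaBP1, a protein disulfide isomerase, had 14.6, 7.27 and 13.4 scaled TPM on day 3 and 24.3 and 25.1 on day 7 (difference 1.06 ± 0.47, 1.09 without replicate 1). ERp60, of the same family, had 51.6, 63.0 and 64.2 against 84.7 and 75 (difference 0.42, 0.33 without replicate 1). Heat shock proteins had a median of −0.04 over 18 genes, or −0.13 without replicate 1, and the cytosolic Hsp83 had 246, 292 and 306 against 459 and 304 (difference 0.42, 0.12 without replicate 1). Neither list held a called gene.

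In 13 of 40 odorant binding protein genes (32.5%, against 7.75% of all genes) both day 7 libraries were below day 3, and in 1 above (2.5%, against 9.11%). Their median was −0.29, and −0.18 without replicate 1. Obp56e had 220, 147 and 250 scaled TPM on day 3 and 61.3 and 67.8 on day 7 (difference −1.62 ± 0.46, −1.55 without replicate 1), but its sham libraries ran from 75.6 to 350. Cytochrome P450 genes, of which 73 were tested, had 14 below day 3 in both day 7 libraries (19.2%, against 7.75%) and 2 above (2.74%, against 9.11%). The P450 median was −0.17, and −0.14 without replicate 1. Cyp6g1, known for insecticide resistance, had 130, 142 and 158 on day 3 and 97.7 and 86.1 on day 7 (difference −0.63, −0.72 without replicate 1). Lysosomal genes had 5 of 17 below (29.4%, against 7.75%) and 1 above (5.88%, against 9.11%), with a median of −0.25 and −0.14 without replicate 1. Sap-r, the saposin precursor gene, had 413, 332 and 320 against 256 and 249 (difference −0.48 ± 0.18, −0.50 without replicate 1), and LManII, a lysosomal mannosidase gene, had 33.8, 28.0 and 34.6 against 23.5 and 23.6 (difference −0.42 with and without replicate 1). For both genes the day 7 libraries lay close to each other.

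Of the remaining lists, glycolysis and trehalose genes had a median of −0.27 (0.05 without replicate 1), cytoskeleton and adhesion genes −0.28 (−0.14), glutathione S-transferases −0.15 (0.04), cuticle proteins −0.13 (−0.09) and antioxidant genes −0.09 (0.26). Lipid droplet and lipid transport genes had −0.21 (−0.14), autophagy genes 0.03 (−0.07), clock genes −0.03 (−0.10), insulin signalling genes 0.10 (0.05) and metallothionein and iron genes −0.00 (0.08). Without scaling, the medians of the septate junction, JAK–STAT, JNK, glycolysis, lipid, glutathione S-transferase, P450 and lysosome lists lay at 0.00 to 0.10, above 0 but still below the median of 0.18 over all genes. The photoreceptor, clock and antioxidant medians also came to lie above 0, at 0.08, 0.16 and 0.18, as did the heat shock, neuronal and muscle medians at 0.23, 0.20 and 0.20. Among these, the trehalose synthesis gene Tps1 had 450, 365 and 418 scaled TPM on day 3 and 271 and 265 on day 7 (difference −0.61 ± 0.21, −0.63 without replicate 1), within its sham range of 247 to 482. The insulin-like peptide gene Ilp6, which glia and fat body express, had 130, 154 and 147 against 71.8 and 112 (difference −0.67 ± 0.18, −0.35 without replicate 1). No member of any list was called.

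Markers of other cell types were compared in the same way. Neuronal markers had a median of −0.07 over 14 genes, photoreceptor genes −0.19 over 16, hemocyte markers −0.30 over 8, fat body genes −0.73 over 8, muscle genes −0.07 over 15 and digestive enzymes 0.95 over 27. Without replicate 1 these were −0.32, 0.01, −0.19, −0.64, 0.48 and −0.10. In 3 of the 8 hemocyte markers (37.5%, against 7.75% of all genes) both day 7 libraries were below day 3, and in 1 above (12.5%, against 9.11%). For the other cell types these shares were 0% to 7.14% below and 0% to 6.67% above. Yp3 stood at 1456, 5409 and 4141 scaled TPM on day 3 and at 1412 and 1626 on day 7, with sham libraries at 1554 to 5828. The muscle myosin gene Mhc had 121, 129 and 109 against 41.9 and 136. Their part in the results above was not tested.

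**Figure D5:**
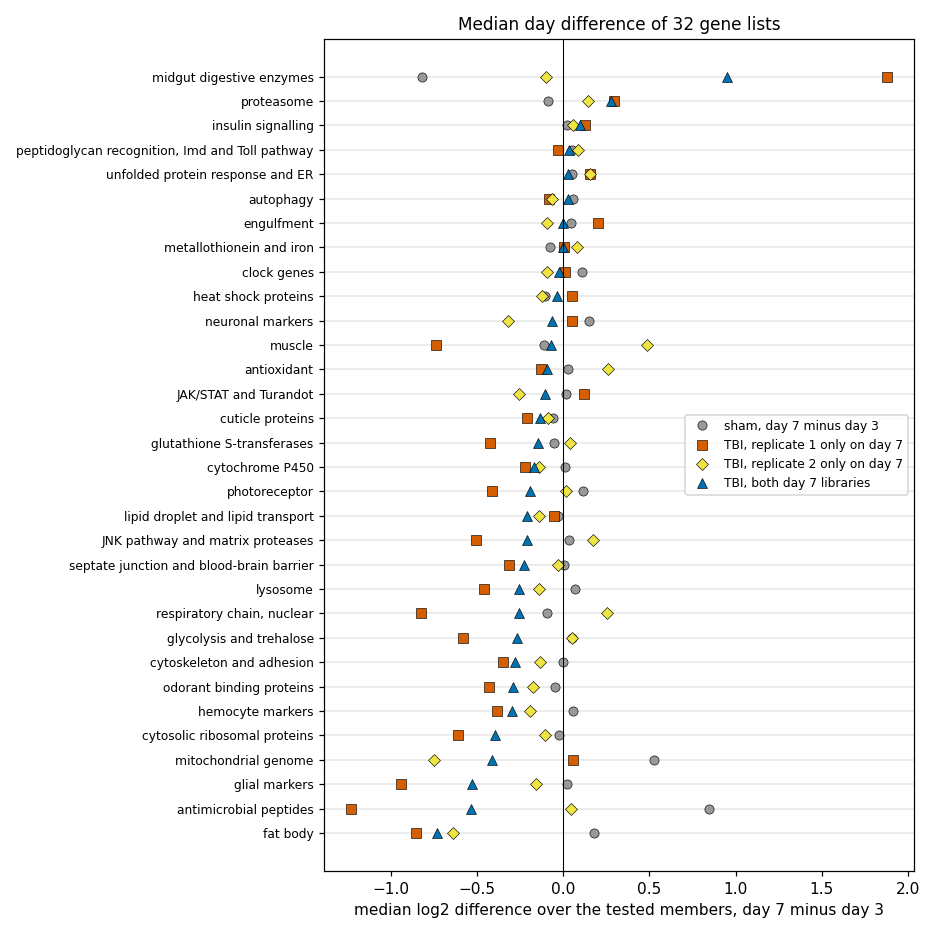
Median log2 difference, day 7 minus day 3, over the tested members of 32 gene lists (x axis; rows ordered by the TBI value; triangles for TBI with both day 7 libraries, squares with replicate 1 only, diamonds with replicate 2 only, circles for sham). The squares and diamonds lie on opposite sides of 0 for the respiratory chain, at −0.83 and 0.25, and on the same side for the proteasome, at 0.30 and 0.14.

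The calls made with replicate 2 alone for day 7 were mostly genes close to 0 elsewhere. Of the 36 higher genes, 32 were below 1 scaled TPM in all 3 day 3 libraries and 23 below 0.05. eff encodes a ubiquitin-conjugating enzyme. It had 39.3 scaled TPM in replicate 2, 0.181 in replicate 1 and 0 to 0.393 on day 3, and was at most 0.0453 in the sham libraries of both days. Among genes with a mean of at least 1 scaled TPM it was the single call of that fit, an alternative chosen after the data had been seen. No level is read from the values near 0, since an estimate can fail there. Of the abundant ones, Argk1, the arginine kinase gene, had 129 in replicate 2, 23.7 in replicate 1 and 33.6 to 44.5 on day 3. CG16772 had 159, 30.7 and 32.9 to 56.7. These genes, chosen after their values had been seen, were high in 1 library only.

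In sham flies, 1 gene rose between day 3 and day 7 of 11694 tested (0.00855%), and none fell. CG11041 had 0.457, 0.365 and 0 scaled TPM on sham day 3 and 2.79, 4.15 and 3.52 on sham day 7 (difference 1.82, limma adjusted p = 0.0258). In injured flies it had 0.919, 0.949 and 0.855 on day 3 and 1.07 and 2.91 on day 7. Without sham day 7 replicate 2 or 3, or without sham day 3 replicate 3, no gene was called in sham flies.

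Whether the day difference itself differed between injured and sham flies was tested as an interaction. Of 12347 genes, 0 were called (0.0%), with 686 at an unadjusted p under 0.05, and the lowest limma adjusted p was 0.0590, for Tim13. nompA, CG17290, CG43702 and CG15059 followed, all at or below 1.29 scaled TPM in every library of these days. With replicate 1 alone for TBI day 7, 1188 genes were called, and with replicate 2 alone 22. Of the abundant genes, Glt had a difference of −1.25 between the contrasts (limma adjusted p = 0.316) and Gat −0.71 (adjusted p = 0.774). Over 8722 genes, taken as a description because genes are no replicates, the day differences of TBI and sham, which share no library, correlated at r = −0.36. Without TBI day 7 replicate 1 and sham day 3 replicate 2, the libraries of these days with germline transcripts, r was 0.14 over 8671 genes.

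CG40470, which the study follows across its days, had 32.8, 48.6 and 39.6 scaled TPM on TBI day 3 and 24.3 and 35 on TBI day 7. In the sham libraries it ran from 63.6 to 79.5, so that all 5 injured libraries lay below all 6 sham libraries while the 2 injured days overlapped. The day difference was −0.43 ± 0.19 (limma unadjusted p = 0.0407, adjusted p = 0.561), and −0.18 without replicate 1.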

How the data were processed

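Glial TRAP RNA was amplified to cDNA and sequenced as single-end reads, giving 17 libraries in 6 groups. The authors quantified reads with Kallisto against FlyBase transcripts (release 6.14 in one place of the methods, 6.10 in another) and summed transcripts to genes with tximport, and the deposited values are TPM per gene, with no depth. Of 13479 genes listed, 814 were 0 in all libraries, and library sums ran from 832800 to 854953 TPM. Names of 13128 genes came from a reference table and of 97 from the study's tables. Positions and overlaps are from the Ensembl annotation of the same assembly, release 6.

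The TPM were divided by upper-quartile factors (0.831 to 1.353, the highest in TBI day 7 replicate 1). log2(scaled TPM + 1) of all 17 libraries was fitted with limma 3.58.1 (R 4.3.3) with 1 mean per group and a trend in the variance, without a replicate term. The study's own test corrected for batch among its replicates. Genes above 0 in at least 1 library of a contrast were tested, 2-sided, with Benjamini-Hochberg adjustment. TPM are not counts, so the count model of the study was not used. A fold on this scale understates the change of low genes. On simulated data with 200 changed genes among 12652, 73% were recovered in the TBI contrast and 3.95% of calls were false. These rates describe the simulated data only. No separate rate was worked out for levels as low as those of the called genes, or with a library that stands apart. The rates are therefore not carried over to the calls reported here.

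Named genes were the 10 of largest change in each direction among called genes with no overlap and a mean of at least 10 scaled TPM in the higher group, filled up by lowest p, the 2 of lowest p in each list with members needed for the range, the 5 of lowest p in the interaction, and CG40470. Some list members outside the rule are named and were chosen after their values were seen. The members and the 32 lists were chosen with earlier results of these data known. The germline and cell cycle lists were added after the values had been seen. Lists were described by counts and medians without a test. Alternatives covered scaling, pseudocount, a filter on low values, the libraries fitted, group weights, a replicate block, thresholds and each library left out.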

Additional observations from a re-analysis of the deposited data

How the results depend on the processing

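Between the injured days 5 genes were called. The count was 3 with the 11 libraries of both days, 0 with the 5 injured libraries alone (410 at an unadjusted p under 0.05), 2 with group weights, 0 among genes averaging 1 TPM or more and 1 at a log2 difference of at least 1 and adjusted p of at most 0.05. Leaving out 1 library gave 3 to 1671, with 39 without TBI day 7 replicate 1, 1671 without replicate 2 and 3 without TBI day 3 replicate 2. Chosen after the data had been seen, leaving out TBI day 7 replicate 1 with the filter gave 1, and leaving it out with sham day 3 replicate 2 gave 34. In sham flies 1 gene was called, with 0 in the fits of 11 or 6 libraries, 3 without those same 2 libraries, and 0 to 3 with 1 library left out. For the interaction 0 were called, with 3 in 11 libraries, 2 without scaling, 5 (4 higher, 1 lower) with a pseudocount of 0.1, 23 without those 2 libraries, 1 without TBI day 7 replicate 1 and with the filter, and 0 to 1188 with 1 library left out. Without scaling the median over all genes moved from 0.02 to 0.18. Same-numbered libraries of the 2 injured days deviated together at r = 0.34 and 0.24, and those of the sham days at 0.18, 0.09 and 0.09. Libraries of different number lay at −0.34 to 0.18 in injured flies and at −0.18 to 0.10 in sham flies. With 2 libraries on day 7 the injured values mirror each other, so they cannot settle whether the numbers pair the samples. The main fit took the samples as unpaired, and the replicate block is the alternative. With the replicate block 4 genes were called between the injured days (3 higher, 1 lower), 1 in sham flies and 0 for the interaction, and with the 5 injured libraries and the replicate block 0. Of 26 named genes under 16 alternatives, none changed direction. All but CG40470 had days that did not overlap, so leaving out 1 library could not have turned their direction. In all, 33 of 406 values fell below the threshold, all of the 5 called genes, and 18 passed it. Of 752 values of 47 list members named, 35 had the opposite sign and 15 passed the threshold. Of 544 list medians, 125 moved by more than the spread of day 3. TPM carries no depth, so the limit of detection is unknown, and 2 libraries on day 7, 1 of which stands apart, set the precision.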
